A study of Homo sapiens with 2 samples.

Results

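The cells described here are 320 epithelial cells of cytokine-treated human colon organoids, taken from both ends of the range of CXCL10, the gene of an interferon-induced chemokine. Organoids were grown from 1383D6, an established induced pluripotent stem cell line, through Activin A and FGF2 steps and then in Matrigel with EGF, forskolin, PD98059 and 5-Aza-2'-deoxycytidine among other additives. One culture (3CK) was exposed for 8 days to IFN-γ, IL-1β and TNF-α, and the second (CNT) was grown without these 3 cytokines. Each culture gave 1 single-cell library, so no value below has a replicate and no test was made: every interval is a 95% interval that covers counting error only. All cells derive from 1 line, and the series title presents the cultures as a model of ulcerative colitis.

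The treated library held 1641 barcodes, and the untreated library 3257 of the 4898 in all. No barcode was shared by the libraries. A treated barcode entered with at least 10000 UMIs (unique molecular identifiers, each one captured mRNA molecule), at most 20% mitochondrial UMIs, fewer than 300 UMIs of the nuclear RNA MALAT1 per 10000, at least 2 of the epithelial adhesion gene EPCAM per 10000 and fewer than 5 of the collagen genes COL1A1, COL1A2 and COL3A1 together. This left 640 treated cells. These were ranked by CXCL10 and cut into 4 groups of 160, called quartiles. The 160 with the most CXCL10 per 10000 UMIs are called CXCL10-high and the 160 with the least CXCL10-low. The same limits kept 887 untreated cells. Before genes were compared, every cell was thinned to 10000 UMIs, and levels are given as UMIs per 1000000 (CPM) summed over a side. Cells of 1 library share a culture, and they are not replicates of a condition.

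CXCL10 is secreted by epithelium, endothelium and myeloid cells in inflamed tissue. With its neighbours CXCL9 and CXCL11 it binds the receptor CXCR3 and draws activated T cells into the mucosa. IFN-γ acts through the kinases JAK1 and JAK2 on factors that bind GAS elements, and it induces IRF1. IRF1 binds ISRE elements, and TNF-α and IL-1β act through NF-κB on κB elements. CXCL10 is a known target of both pathways.

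The 3 chemokine genes lie next to one another on the minus strand of chromosome 4, CXCL9 at chr4:76001275-76007509, CXCL10 at chr4:76021118-76023497 and CXCL11 at chr4:76033682-76036070 (RefSeq, GRCh38.p14). Their promoters are shown because the sides are defined by 1 of these genes and the other 2 gave the highest ratios between the sides among genes with at least 50 CPM that were detected in more than 4 cells of the high side. Each line is the 250 bases before the RefSeq start, 5′ to 3′ on the gene's strand, with motif matches in capitals.
CXCL10: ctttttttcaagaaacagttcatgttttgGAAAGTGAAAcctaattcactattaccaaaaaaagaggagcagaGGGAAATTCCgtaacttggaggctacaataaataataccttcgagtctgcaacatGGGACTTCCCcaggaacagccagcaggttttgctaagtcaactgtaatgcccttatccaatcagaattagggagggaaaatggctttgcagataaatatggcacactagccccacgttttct
CXCL11: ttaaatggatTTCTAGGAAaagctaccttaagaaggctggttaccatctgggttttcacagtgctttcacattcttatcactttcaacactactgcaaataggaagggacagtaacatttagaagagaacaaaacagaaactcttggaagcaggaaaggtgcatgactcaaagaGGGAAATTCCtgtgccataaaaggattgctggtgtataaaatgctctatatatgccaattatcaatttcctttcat
CXCL9: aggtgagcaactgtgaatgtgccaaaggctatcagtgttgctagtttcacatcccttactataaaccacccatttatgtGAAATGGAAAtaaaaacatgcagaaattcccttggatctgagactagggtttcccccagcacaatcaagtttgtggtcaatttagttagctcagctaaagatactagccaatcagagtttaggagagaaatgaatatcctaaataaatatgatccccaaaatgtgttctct
These windows are chr4:76023498-76023747 for CXCL10, chr4:76036071-76036320 for CXCL11 and chr4:76007510-76007759 for CXCL9. The motifs searched on both strands were GAAANNGAAA for the ISRE, TTCNNNGAA for the GAS and GGGANNNNCC for the κB element. CXCL10 held an ISRE match, GAAAGTGAAA, 221 to 212 bases before its start, and κB matches GGGAAATTCC at 177 to 168 bases and GGGACTTCCC at 122 to 113 bases. CXCL11 held a GAS match, TTCTAGGAA, 240 to 232 bases before its start and the κB match GGGAAATTCC at 76 to 67 bases. CXCL9 held an ISRE match, GAAATGGAAA, 171 to 162 bases before its start. Of all 35116 promoters in the RefSeq table, 3.02% held the ISRE letters, 6.57% the GAS letters and 22.6% the κB letters. A match describes these letters only and shows no binding.

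CXCL10 was close to undetected without the cytokines and spread over a wide range with them. A UMI of it was found in 6 of 887 untreated cells (0.676%, exact binomial interval 0.249 to 1.47%, median depth 70869 UMIs) and in 596 of 640 treated cells (93.1%, interval 90.9 to 95.0%, median depth 97345). Per 10000 UMIs, CXCL10-low cells ranged from 0 to 0.361 with a median of 0.161, and CXCL10-high cells from 19.6 to 211 with a median of 43.2. The quartiles between had medians of 0.843 and 7.87. The rule itself separates the sides, so these values are a description. The last cell inside the low side stood at 0.361 and the first outside at 0.369. The last inside the high side stood at 19.55 and the first outside at 19.49, so neither edge falls in a gap. CXCL10-high cells held 85.7% of all CXCL10 UMIs of the 640 cells, and CXCL10-low cells held 0.214%. In 44 low cells no CXCL10 UMI was found at a median depth of 56369, where 3 UMIs would be 0.532 per 10000. At the level of the low side, a UMI from free RNA of other cells cannot be told apart from the cell's own.

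**Figure D1:**
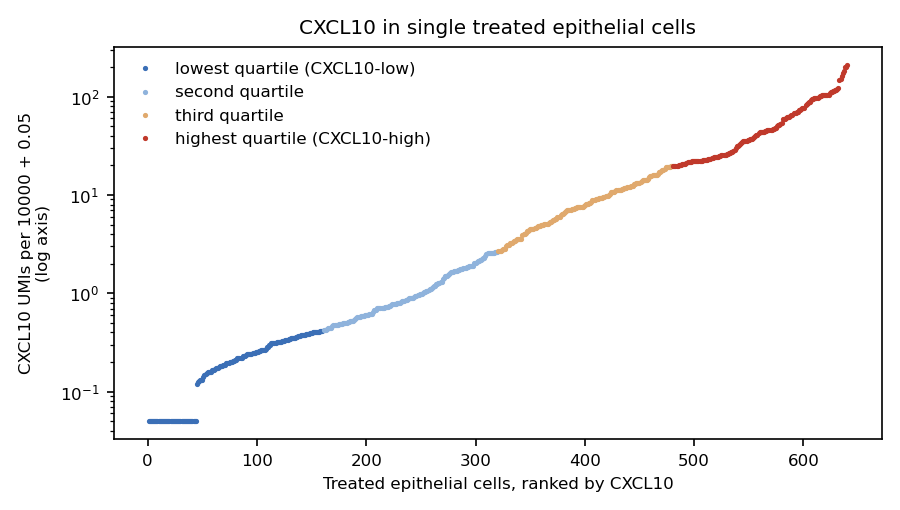
CXCL10 UMIs per 10000 (plus 0.05, log axis) in the 640 treated epithelial cells, ranked from lowest to highest and coloured by quartile. The curve climbs without a step at either edge of the quartiles, and 44 cells sit at 0.

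Against this spread, the sides were alike in median mitochondrial share and unlike in depth. Median depth was 87248.5 UMIs in CXCL10-low and 107657 in CXCL10-high cells, and the lowest tertile of depth held 72 low and 32 high cells. Median mitochondrial share was 2.26% and 2.11% per cell. Median MALAT1 was 3.8 and 1.76 UMIs per 10000, median EPCAM 9.13 and 6.33. The sides differed more in cells rich in MALAT1: its upper quartile value within a side was 64.8 in CXCL10-low and 14.6 in CXCL10-high cells. Of 3544 genes that reached 50 CPM in the side where they were higher, CXCL10 itself left out, 88 (2.48%) were at least 2-fold higher in CXCL10-high cells and 218 (6.15%) at least 2-fold lower, with a median log2 ratio of 0.02. The count of lower genes was 111 when CXCL10 was ranked within tertiles of depth and 115 within tertiles of MALAT1, and 100 from sums without thinning.

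The other CXCR3 ligands were far higher in CXCL10-high cells. CXCL11 stood at 0.225 CPM in untreated cells and at 23.1, 77.5, 203 and 770 CPM from the lowest to the highest quartile of CXCL10. CXCL10-high cells were 33.3-fold above CXCL10-low cells (log2 ratio 5.06, interval 4.59 to 5.57), with a UMI in 151 of 160 against 21 of 160. CXCL9 stood at 9.38, 30.0, 66.9 and 219 CPM over the quartiles, 23.4-fold apart (log2 4.55, interval 3.81 to 5.40). CXCL9 had a UMI in 10 low and 82 high cells and in 0 of 887 untreated cells, which allows a share of cells with a UMI of up to 0.338% (3 cells of the total). In CXCL10-high cells, 77 carried UMIs of both genes and 4 of neither. In CXCL10-low cells none carried both and 129 carried neither. Both genes were graded over the 4 quartiles, with none out of order.

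The most CXCL10-like genes over all 640 cells were led by interferon-inducible genes, by Spearman correlation with CXCL10 per 10000 UMIs among 1494 genes with a mean of at least 1 UMI per thinned cell. The coefficient was 0.73 for CXCL11, 0.51 for IDO1, 0.49 for GBP5, 0.48 for TNFSF10 and 0.41 for both ISG15 and IL32. ISG20, IFIT3, MT2A and VAMP5 completed the 10 highest, between 0.38 and 0.40. Over the 1494 genes the median was 0.05 and the central 95% ran from -0.18 to 0.29. These cells share 1 library, and depth differed with CXCL10, so the coefficients are a description. At the other end stood CKB, a brain-type creatine kinase, at -0.37, the selenium carrier SELENOP at -0.32 and APOB at -0.32.

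Among 33 IFN-γ response genes, all with at least 10 CPM in a side, 10 were at least 2-fold higher in CXCL10-high cells and none at least 2-fold lower, with a median log2 ratio of 0.74 and 31 higher at any fold. Over all 9698 genes at that level, 3.28% were at least 2-fold higher, 11.5% at least 2-fold lower and 40.4% higher at any fold, and the median was -0.12. CXCL9 reached 10 CPM only on the high side, which favours a high ratio. Without CXCL9 and CXCL11, 8 of 31 genes were at least 2-fold higher and the median was 0.68. IDO1, which breaks down tryptophan, had the highest ratio after those chemokines. It stood at 230, 377, 619 and 954 CPM from the lowest to the highest quartile and at 0 UMIs in untreated cells. Its log2 ratio between the sides was 2.05 (interval 1.89 to 2.22), and the median cell held 1 thinned UMI on the low side and 7 on the high side. Of the guanylate-binding proteins, GTPases that act on pathogen-containing vacuoles, GBP5 stood at 279, 431, 614 and 794 CPM over the quartiles (log2 1.51, interval 1.35 to 1.67). GBP4 reached 1.42 and GBP1 0.94. The JAK inhibitor SOCS1 reached 1.24, the adhesion ligand ICAM1 1.06, the lipid-binding APOL1 1.09 and SECTM1 1.58.

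CXCL10-low cells were not without the IFN-γ programme. Of 32 list genes with at least 10 CPM in CXCL10-low or untreated cells, 32 were at least 2-fold higher in CXCL10-low cells, with a median log2 ratio of 4.44, against 8.18% of 9936 genes, and 6.36% of those were at least 2-fold lower. The summed list without CXCL9 and CXCL11 had a median of 14 UMIs per thinned untreated cell, 164.5 per CXCL10-low cell and 223 per CXCL10-high cell. The 99th percentile of untreated cells, 73 UMIs, was exceeded by 92.5% of CXCL10-low and 100% of CXCL10-high cells. The per-cell ranges, 10 to 439 and 124 to 584, overlapped over most of their length.

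Summed together, the 44 cells with no CXCL10 UMI carried the programme too, which does not show that each of them did. B2M, the light chain of MHC class I, stood at 9473 CPM in these cells against 1244 CPM in untreated cells. In the same order, the peptide transporter gene TAP1 stood at 441 against 7.78 CPM, GBP1 at 305 against 2.25 CPM, and IDO1 at 241 CPM against 0 UMIs.

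**Figure D2:**
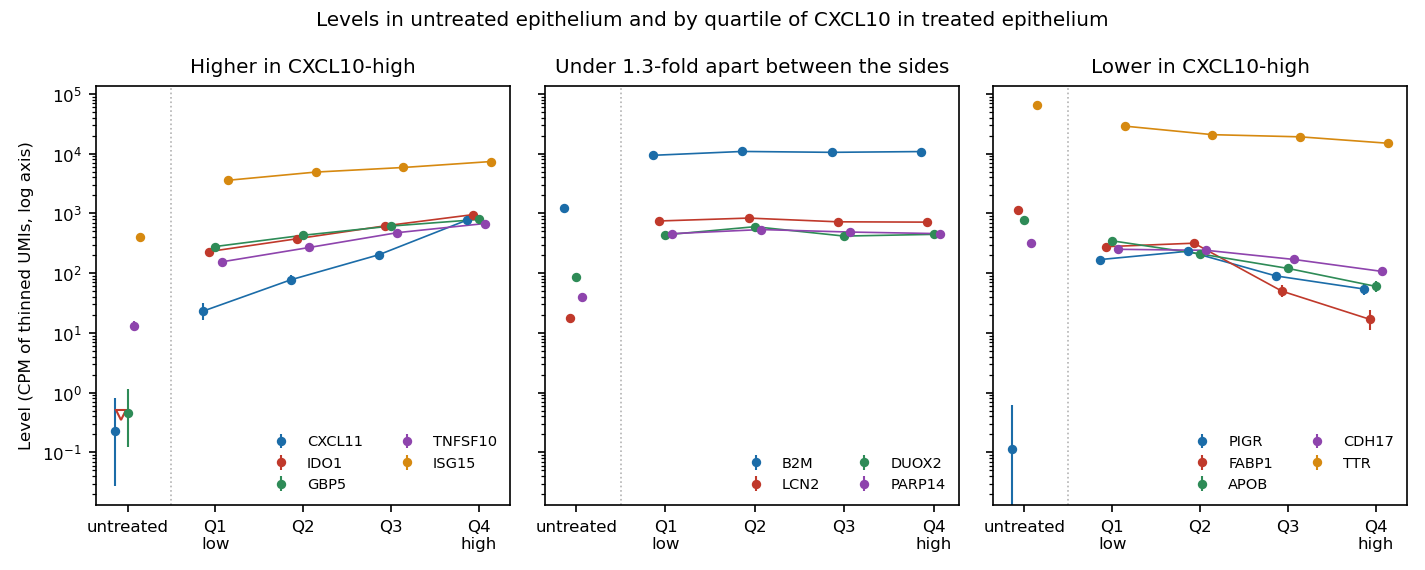
Levels (CPM of thinned UMIs, log axis) of 14 genes in untreated epithelium and in the quartiles of CXCL10 in treated epithelium (Q1 lowest, Q4 highest), with exact Poisson intervals; the open triangle marks the upper limit of that interval for a gene at 0. CXCL11 goes from 23.1 to 770 CPM over the quartiles, LCN2 stays between 715 and 836 CPM, and FABP1 goes from 278 to 16.9 CPM.

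Upstream signalling genes had a share past 2-fold near that of all genes. IRF1, itself an IFN-γ target, stood at 283 CPM in low and 424 CPM in high cells (log2 0.58, interval 0.41 to 0.76). The ligand-binding receptor chain IFNGR1 was at 219 and 196 CPM, and its partner IFNGR2 at 44.4 and 78.1 CPM (log2 0.82). Of 17 receptor, JAK-STAT and IRF genes at 10 CPM, 1 was at least 2-fold higher, SOCS1, and none 2-fold lower, against 3.28% higher and 11.5% lower of all genes. Their median log2 ratio was 0.26. These are mRNA levels, and protein activity was not measured.

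The antigen presentation genes of MHC class I stayed within 2-fold between the sides and were far above untreated cells on both. None of 18 passed 2-fold in either direction between the sides, 16 were higher at any fold, and the median log2 ratio was 0.38. Of all genes at 10 CPM, 3.28% were at least 2-fold higher, 11.5% at least 2-fold lower and 40.4% higher at any fold. Against untreated cells, 18 of 18 class I genes were at least 2-fold higher on the low side, with a median log2 ratio of 3.29. HLA-B stood at 4849 CPM in low, 6258 in high and 241 in untreated cells. B2M stood at 9401, 10909, 10545 and 10861 CPM over the quartiles. TAP1 (log2 0.74) and PSME2, a proteasome activator subunit (0.61), were among the higher ratios. NLRC5, the transactivator of class I genes, was level at 48.1 and 46.2 CPM. Class II antigen presentation was largely undetected: HLA-DRA and HLA-DQA1 had no thinned UMI in either side or in untreated cells, and the transactivator CIITA had 0 CPM in low and 0.625 CPM in high cells. The invariant chain CD74 stood at 54.4 and 114 CPM (log2 1.07).

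Type I interferon antiviral genes were the longest list and had the most members past 2-fold by count. Of 36 genes, 14 were at least 2-fold higher in CXCL10-high cells, none 2-fold lower and 35 higher at any fold, with a median log2 ratio of 0.90. Of all genes at 10 CPM, 3.28% were at least 2-fold higher, 11.5% at least 2-fold lower and 40.4% higher at any fold. Some shorter lists had a larger share past 2-fold, such as 4 of 7 CC chemokines. In CXCL10-low or untreated cells, 4 CC chemokines and 34 genes of the type I list reached 10 CPM. Some members of both lists thus passed the limit only through the high side, which favours a high ratio. ISG15, a ubiquitin-like protein, stood at 3586, 4923, 5880 and 7401 CPM over the quartiles and at 396 CPM in untreated cells, and its median cell held 27 thinned UMIs on the low and 63 on the high side. The RNA-binding IFIT genes followed: IFIT2 at 80.6 and 300 CPM (log2 1.90), IFIT1 at 95.0 and 286 CPM (1.59) and IFIT3 at 370 and 817 CPM (1.14). OASL, an activator of RIG-I signalling, had the highest ratio of the list (log2 2.85, interval 2.04 to 3.77), with a UMI in 8 low and 43 high cells. That ratio was 1.36 between the highest and lowest tertile of CXCL10, and 1.46 both within tertiles of depth and within tertiles of enterocyte UMIs. IFIT5 stood at 31.2 and 22.5 CPM (log2 -0.47), a direction that turned with a second thinning seed (0.36). On the low side 33 of 34 genes were already 2-fold above untreated cells. The genes of the interferons themselves did not give counts to compare: IFNB1, IFNL2 and IFNL3 had no thinned UMI in untreated, CXCL10-low or CXCL10-high cells, and IFNL1 had 0.625 CPM in low cells and 0 UMIs in high cells. This list shares UBE2L6 with the IFN-γ list, and IFN-γ induces many of its members.

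Most NF-κB targets of TNF-α and IL-1β were higher in CXCL10-high cells. Of 28 genes at 10 CPM, 9 were at least 2-fold higher in CXCL10-high cells and none 2-fold lower. The median log2 ratio was 0.82, with 23 higher and 5 lower at any fold. Of all genes at that level, 3.28% were at least 2-fold higher, 11.5% at least 2-fold lower and 40.4% higher at any fold. In CXCL10-low or untreated cells 24 genes of the list reached 10 CPM. Some of the 28 thus passed the limit only through the high side, which favours a high ratio. The feedback inhibitors TNFAIP3 (24.4 and 75.6 CPM, log2 1.63) and NFKBIA (101 and 188 CPM, 0.89) were higher, as were the apoptosis inhibitor BIRC3 (65.6 and 215 CPM, 1.71), the cytokine IL32 (2459 and 4793 CPM, 0.96) and mitochondrial superoxide dismutase SOD2 (579 and 1032 CPM, 0.83). The neutrophil chemokine CXCL8 stood at 35.0 and 91.9 CPM (1.39, and 0.59 from sums without thinning). Other strong targets were level or lower: CXCL5, also a neutrophil chemokine, stood at 552 and 476 CPM (log2 -0.22), and CCL20, which attracts CCR6-bearing cells, at 455 and 319 CPM (-0.51). Both exceeded their levels in untreated cells, 23.9 and 38.3 CPM. The receptor TNFRSF1A was at 88.8 and 98.1 CPM, and IL1R1 at 5 and 2.5 CPM, too few UMIs to compare.

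Several further chemokines and TNF-family ligands had high ratios, most of them from few cells. CCL3, an inflammatory chemokine, stood at 36.2, 138, 221 and 372 CPM over the quartiles (log2 3.36, interval 2.97 to 3.78), with a UMI in 19 low and 48 high cells. CCL5 had 0.625 CPM in 1 low cell and 49.4 CPM in 23 high cells (log2 6.30, interval 3.78 to 11.63). CX3CL1, the membrane-bound chemokine fractalkine, stood at 7.5 and 64.4 CPM (3.1) in 12 and 52 cells. TNFSF10, the death ligand TRAIL, stood at 154, 269, 476 and 678 CPM (log2 2.14, interval 1.93 to 2.34), in 78 low and 146 high cells. Lymphotoxin beta, LTB, stood at 68.8 and 326 CPM (2.25), and the B-cell survival factor TNFSF13B at 21.9 and 88.1 CPM (2.01). All 6 were graded in the same order over the 4 quartiles. Over the alternative settings the ratio of CCL5 ranged from 2.08 to 6.30, that of CX3CL1 from 1.69 to 4.81 and that of CCL3 from 2.74 to 4.06. PLAU, the urokinase protease, stood at 8.75 and 66.2 CPM (2.92), and the matrix protease MMP7 at 18.8 and 90.6 CPM (2.27) in 11 and 22 cells. The 2 highest ratios of all, of the gut hormones MLN and GHRL, came from 1 cell each: that cell held 100% of the MLN and 97.2% of the GHRL UMIs of the high side.

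Checkpoint and adhesion ligands had 6 of 14 genes at least 2-fold higher, none 2-fold lower and a median log2 ratio of 0.60. Of all genes at 10 CPM, 3.28% were at least 2-fold higher and 11.5% at least 2-fold lower. LGALS9 (41.9 and 95.6 CPM, log2 1.19), the phagocytosis inhibitor CD47 (148 and 299 CPM, 1.01) and PDCD1LG2 (6.25 and 24.4 CPM, 1.96) were among the 6. PDCD1LG2 reached 10 CPM only on the high side, which favours a high ratio. In CXCL10-low or untreated cells 12 genes of the list reached 10 CPM. CD274, which encodes PD-L1, was at 26.2 and 47.5 CPM (0.86), against 0.225 in untreated cells. Among 25 cell death genes 3 passed 2-fold: TNFSF10, CASP4 (60.6 and 137 CPM, log2 1.17), which senses intracellular lipopolysaccharide, and ZBP1 (2.5 and 10.0 CPM, from 4 and 15 cells). ZBP1 too reached 10 CPM only on the high side. The death receptor TNFRSF10B, bound by TNFSF10, was level at 77.5 and 73.1 CPM.

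**Figure D3:**
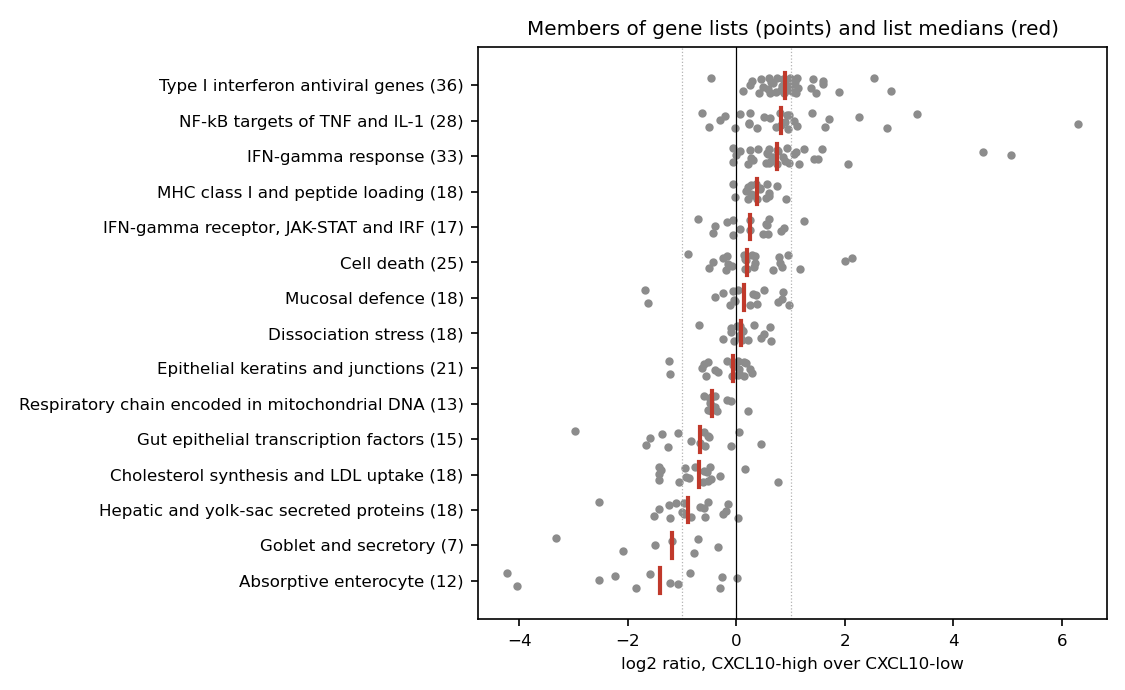
Log2 ratio of CXCL10-high over CXCL10-low cells for each member (grey points) of 15 gene lists, with the list median in red and the number of members with at least 10 CPM in brackets; dotted lines mark 2-fold. The IFN-γ response, type I interferon and NF-κB lists have medians from 0.74 to 0.90. The IFN-γ receptor, JAK-STAT and IRF list has 0.26, and hepatic, goblet and enterocyte lists have medians from -0.89 to -1.40.

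Mucosal defence genes of the epithelium showed no common direction: of 18, none was at least 2-fold higher, 2 were 2-fold lower, and the median log2 ratio was 0.14. Of all genes at 10 CPM, 3.28% were 2-fold higher and 11.5% 2-fold lower, with a median of -0.12. The share of lower members was thus near that of all genes. The siderophore-binding protein gene LCN2 stood at 748, 836, 724 and 715 CPM over the quartiles, all far above 17.8 CPM in untreated cells, with a UMI in 58 low and 74 high cells. DUOX2, the mucosal hydrogen peroxide source, stood at 438 and 446 CPM. The mucin gene MUC1 was higher, at 406 and 727 CPM (log2 0.84). PIGR, the receptor that carries IgA across the epithelium, was lower: 169, 232, 90 and 54.4 CPM over the quartiles against 0.113 CPM in untreated cells (log2 between the sides -1.63, interval -2.00 to -1.28). It had a UMI in 76 low and 42 high cells. The other gene past 2-fold was PI3, the protease inhibitor elafin, at 20.0 and 6.25 CPM. Outside the list, LBP, the lipopolysaccharide-binding protein, stood at 92.5, 11.9, 17.5 and 7.5 CPM (log2 -3.62, interval -4.61 to -2.78), and 1 of its 20 positive low cells held 23.0% of the low side's UMIs; over the alternative settings its ratio ranged from -5.43 to -2.17.

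**Figure D4:**
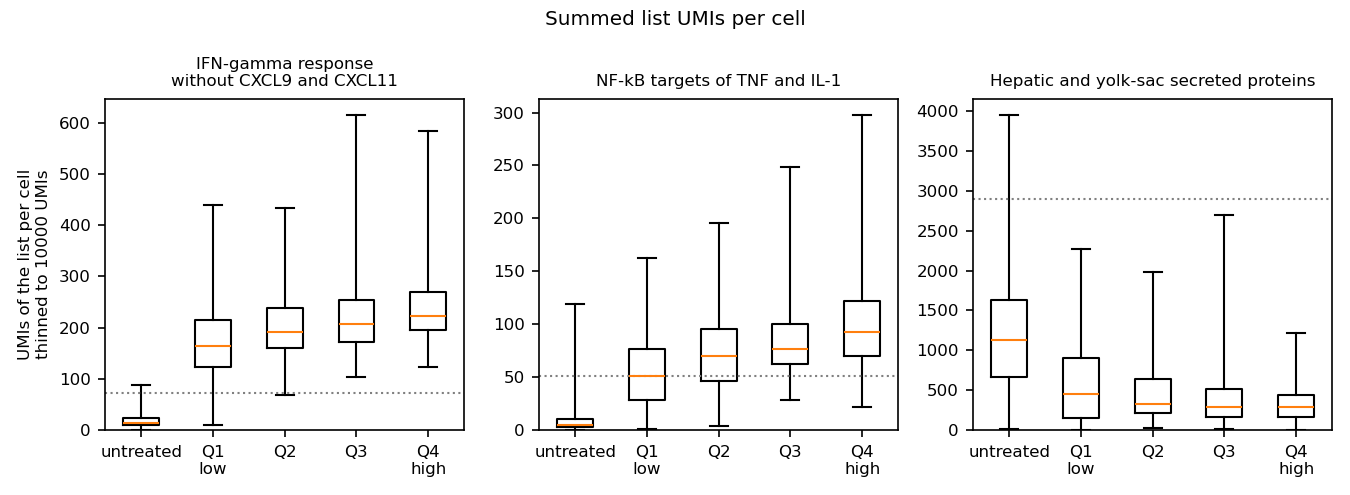
Summed UMIs of 3 gene lists per thinned cell in untreated cells and in the quartiles of CXCL10 (boxes show quartiles, whiskers the lowest and highest cell, dotted lines the 99th percentile of untreated cells). Median UMIs of the IFN-γ list without CXCL9 and CXCL11 go from 164.5 to 223 over the quartiles against 14 in untreated cells, median NF-κB list UMIs from 51 to 92.5, and median hepatic list UMIs from 455 to 291.

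Genes of proteins secreted by fetal liver and yolk sac were lower in CXCL10-high cells. Of 18 genes, 6 were at least 2-fold lower, none 2-fold higher and 1 higher at any fold, with a median log2 ratio of -0.89. Of all genes at 10 CPM, 11.5% were at least 2-fold lower and 40.4% higher at any fold. TTR, the thyroxine carrier transthyretin, stood at 65291 CPM in untreated cells and at 28997, 20839, 19160 and 14958 CPM over the quartiles. The fibrinogen gene FGB stood at 2440 and 906 CPM (log2 -1.43), and vitronectin, VTN, at 918 and 391 CPM (-1.23). The apolipoprotein genes split: APOB was at 348 and 60.0 CPM (-2.53), while APOA1 was at 6098 and 5329 CPM (-0.19) and APOC3 at 1049 and 1077 CPM. The highest tertile of TTR held 71 low and 44 high cells. Ranking CXCL10 within tertiles of TTR left a hepatic list median of -0.55, a median of 0.66 for the IFN-γ list and a CXCL11 ratio of 4.85.

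Absorptive enterocyte genes had the lowest list median, -1.40, with 8 of 12 at least 2-fold lower and none 2-fold higher. Of all genes at 10 CPM, 11.5% were at least 2-fold lower and 3.28% at least 2-fold higher. FABP1, a fatty acid carrier, stood at 1131 CPM in untreated cells and at 278, 318, 50 and 16.9 CPM over the quartiles (log2 -4.04, interval -4.66 to -3.48), with a UMI in 43 low and 9 high cells. FABP2 stood at 35.0 and 1.88 CPM, the lipoprotein assembly gene MTTP at 42.5 and 11.9 CPM, and the carbonic anhydrase CA4 at 109 and 23.1 CPM. The apolipoprotein APOA4 (2129 and 1785 CPM) and the peptidase DPP4 (513 and 416 CPM) were within 1 log2 unit. The signal was thin in most cells: the median cell held 18.5 summed list UMIs on the low side and 12 on the high side, and the highest 429 and 215. Of 7 goblet and secretory genes 4 were at least 2-fold lower, with a median log2 ratio of -1.19. The trefoil peptide TFF1 stood at 851 and 199 CPM (-2.09), and REG4 came from 5 low cells and 1 high cell. MUC2, the defining goblet mucin, was at 0.625 and 1.25 CPM, so the list does not mark mature goblet cells here. Other defining colon genes were scarce too: the carbonic anhydrase CA1 stood at 0.625 CPM on both sides, and the water channel AQP8 had no thinned UMI.

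Transcription factors of gut epithelium were lower as well: 6 of 15 at least 2-fold, none 2-fold higher, with a median of -0.67, against 11.5% of all genes at 10 CPM that were 2-fold lower and 40.4% that were higher at any fold. HNF4A stood at 31.2 and 13.1 CPM, GATA4 at 39.4 and 12.5 CPM, FOXA1 at 35.6 and 11.9 CPM and ONECUT2 at 34.4 and 4.38 CPM (log2 -2.97, range -3.17 to -1.40 over the alternative settings). The hindgut factor CDX2 stood at 103 and 58.1 CPM (log2 -0.83), with a UMI in 89 low and 53 high cells. General epithelial genes were near level. Of 21 keratin and junction genes 2 were 2-fold lower, KRT20 and CDH17, and the median was -0.05. KRT8 stood at 6810 and 7091 CPM, KRT18 at 10010 and 11054 CPM, and EPCAM, used to select the cells, at log2 -0.51. Cholesterol synthesis and LDL uptake genes had 5 of 18 at least 2-fold lower and a median of -0.69, among them the sterol oxidase MSMO1 (76.9 and 28.8 CPM) and the reductase DHCR7 (20.0 and 7.5 CPM). The 13 respiratory chain genes of mitochondrial DNA were all within 2-fold, 12 of them lower, with a median of -0.45. That median was -0.21 within tertiles of depth, -0.27 within tertiles of MALAT1 and -0.23 with at most 10% mitochondrial UMIs. It was -0.66 between the highest and lowest decile of CXCL10.

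Lists that follow cell handling or division were near level. The medians were 0.09 for dissociation stress, -0.12 for the unfolded protein response, -0.14 for S phase and -0.20 for G2 and M phase, the last 0.58 between the highest and lowest decile of CXCL10. Markers of other cell types were scarce on both sides. The leukocyte marker PTPRC, the defining pan-leukocyte gene, had no UMI in untreated, CXCL10-low or CXCL10-high cells. CD14 had 0 CPM in low and 0.625 CPM in high cells, and the summed leukocyte list ranged from 0 to 11 UMIs per low cell and from 0 to 9 per high cell, with a median of 1 on both sides. The summed endothelial list had a median of 1 and the neural list of 2 on both sides. Mesenchymal list UMIs, of which the selection limits 3 collagens, had medians of 8.5 and 10 and ranges of 0 to 128 and 0 to 76. Among 22 barcodes with the highest doublet scores in the treated library, 2 were in the high and 1 in the low side.

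Genes that span a long stretch of the genome were lower in CXCL10-high cells. Of 611 genes over 100 kb, 125 were at least 2-fold lower and 3 at least 2-fold higher, with a median log2 ratio of -0.60, while 2852 genes up to 100 kb had a median of 0.10. The 218 lower genes had a median span of 130 kb, against 23.8 kb for all tested genes and 14.4 kb for the 88 higher genes. Among the lowest ratios of all tested genes, of any span, were the sodium channel gene SCN7A (65.0, 28.8, 5.62 and 1.88 CPM over the quartiles, log2 -5.12, interval -7.42 to -3.53) and the long noncoding RNAs XACT (66.2 and 3.75 CPM) and PTCHD1-AS (56.9 and 8.75 CPM). No gene over 100 kb had a log2 ratio under -2.75, so SCN7A and XACT are not among the 611. SCN7A came from 19 low and 2 high cells, and 1 cell held 47.2% of the low side's XACT UMIs, and the XACT ratio ranged from -5.13 to -1.66 over the alternative settings. MALAT1, which stays in the nucleus, and depth moved with the lower ratios of the genes over 100 kb. With CXCL10 ranked within tertiles of MALAT1 the median of the same 611 genes was -0.29 and 40 were 2-fold lower. Within tertiles of depth the median was -0.33 and 45 were 2-fold lower, and within tertiles of TTR it was -0.64 with 144. Whether MALAT1 or depth has a part in the remainder was not tested.

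**Figure D5:**
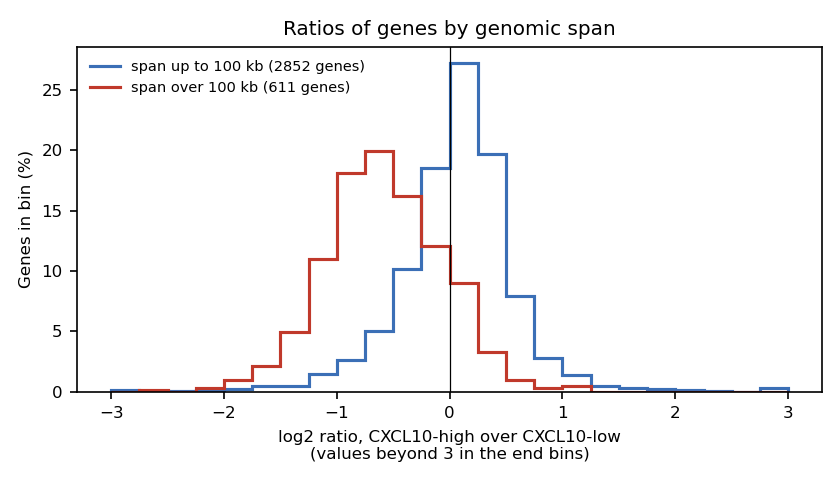
Distribution of log2 ratios of CXCL10-high over CXCL10-low cells for genes spanning over 100 kb (red, 611 genes) and up to 100 kb (blue, 2852 genes), as percent of each set per bin; ratios beyond 3 are drawn in the end bins. The red curve is centred at -0.60 and the blue curve at 0.10.

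CXCL10 was also ranked within tertiles of depth, of MALAT1 or of enterocyte UMIs, each measure taken alone. This kept the direction of the genes and lists given next and moved the size of some. Within tertiles of MALAT1, median depth was still 91024 UMIs in low and 106705 in high cells. Within tertiles of enterocyte UMIs it was 87394 and 106557, and median MALAT1 was 4.30 and 2.05 on the scale used above. Within tertiles of depth, median MALAT1 was nearer, at 2.79 and 2.31. Ranking within these measures together was not tested. CXCL11 kept a log2 ratio of 4.66 within tertiles of depth, 5.13 within tertiles of MALAT1 and 4.64 within tertiles of summed enterocyte UMIs. IDO1 had 2.21, 2.18 and 1.93. The IFN-γ list median was 0.74, 0.73 and 0.73, and the type I list median 0.88, 0.93 and 0.91. FABP1 had -3.73, -4.29 and -3.82, and PIGR -1.28, -1.83 and -1.73. The goblet list median was nearer to 0 within tertiles of depth, at -0.62. The hepatic list median was -0.76 within tertiles of depth, -0.91 of MALAT1 and -0.64 of enterocyte UMIs.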

How the data were processed

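The authors deposited 1 matrix per library of raw UMI counts, made with Cell Ranger 7.1.0 per the file headers, with build GRCh38 per the submitters' processing notes. About 8300 cells were loaded per library, per the labels' protocols. The libraries hold 105314879 (CNT) and 94887438 (3CK) UMIs over the same 36601 genes. The members, the 37 gene lists and the comparisons were chosen with earlier results of these data known.

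Cells were selected by the stated limits, ranked by unthinned CXCL10 per 10000 UMIs with ties in file order, and thinned to 10000 UMIs without replacement (seed 20240501; Python 3.11.15, numpy 2.4.6, scipy 1.17.1, pandas 2.3.3). Sums carry exact Poisson intervals, shares Clopper-Pearson intervals (a share of 0 the limit of 3 counts), and ratios an interval from the exact binomial share. A group at 0 was set to 3 UMIs over the group. Counts of genes past 2-fold used at least 50 CPM in the higher side, and lists at least 10 CPM. A gene that reaches the limit only on its higher side tends to have a large ratio, in a list and among all genes alike. Doublets were scored with Scrublet (scanpy 1.11.5) and left out only in an alternative. Ratios were tested on simulated data with known folds. Of 36601 gene symbols, 23076 matched the RefSeq table, which gave spans and coordinates. The share of motifs among higher or lower genes is void, since 75% and 78.0% of them had a promoter in the table.

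Named genes were the 15 largest and 15 smallest ratios, the highest, largest and smallest member of each list, a fixed set of 25 genes and the 10 most CXCL10-like. Other list members are given as examples of their group, and CKB and SELENOP as the lowest correlations. Some genes that this rule selects are not reported here.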

Additional observations from a re-analysis of the deposited data

Results flagged for a closer look

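CXCL10 was also present in treated barcodes that the selection left out, well above the same classes of the untreated library. In 121 treated barcodes with collagen at or above the limit it stood at 2454 CPM of unthinned UMIs (exact Poisson interval 2426 to 2483), with a UMI in 114 of them at a median depth of 90846. In 367 untreated barcodes of that class it stood at 1.75 CPM. In 155 treated barcodes with MALAT1 at or above the limit it stood at 277 CPM (interval 266 to 289), with a UMI in 140 of them at a median depth of 47397. In 159 such untreated barcodes it had 0 UMIs. The selected treated epithelium stood at 1880 CPM on this scale. These barcodes entered no comparison above.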

How the results depend on the processing

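The 88 genes at least 2-fold higher became 201 with the highest and lowest decile of cells in place of the quartile, 318 with a minimum of 10 CPM and 1013 with no filter on low values. The 218 lower genes became 381, 1120 and 2450 in those settings, 100 from sums without thinning, 111 within tertiles of depth and 115 within tertiles of MALAT1. The median log2 ratio of the IFN-γ list, 0.74, was 0.92 with deciles and 0.61 to 0.80 in the other settings. That of the NF-κB list, 0.82, stayed between 0.68 and 0.95. Ranking within tertiles of MALAT1 and of enterocyte UMIs was chosen after seeing the data. For list medians the interval used was the counting interval of the middle gene or genes of the list. Over 608 values of list medians under alternatives, 577 stayed within it, 31 moved outside it and none turned sign with a reported interval that excludes 0. Its width follows the counts of that gene, so 577 does not measure how stable the medians are. It was 0.61 to 0.88 for the IFN-γ list and -0.03 to 1.42 for that list without CXCL9 and CXCL11. Over 2153 values of named genes, 1888 stayed, 260 moved and 5 turned sign with a reported interval that excludes 0. Genes whose interval holds 0, such as IFIT5 (-0.58 to 0.38) and LCN2 (-0.87 to 0.01), turned sign too and are not among the 5. Of the 5, ERAP2 was -0.076 when thinned to 5000 UMIs (reported 0.92), DEFB1 -0.20 (0.97) and MT1H 0.46 (-0.63) with deciles, APOA4 0.17 (-0.25) within tertiles of enterocyte UMIs, and VIM -0.063 (0.28) without the highest quintile of G2 and M phase UMIs. The cause of these shifts was not tested. Median-of-ratios scaling moved all log2 ratios by -0.02. No paired analysis was possible because each group is 1 library. With 160 cells thinned to 10000 UMIs, 3 UMIs on a side equal 1.88 CPM, and genes near that level have no usable ratio.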
